A study of Saccharomyces cerevisiae with 20 samples.

Results

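Footprints of 80S ribosomes were compared between budding yeast making the E. coli methionyl-tRNA formyltransferase (EcFMT) and yeast making its R42L form, in cells whose label, RLI1_depl, names depletion of RLI1. The 4 libraries with that label, 2 with EcFMT and 2 with R42L, were chosen by their sample titles from the 20 libraries of the series. All groups used here are labelled as fmt1 deletion cells, which were harvested near an A600 of 0.5 after growth in synthetic complete medium at 30 °C. The sources used here give neither the way in which RLI1 was depleted nor its duration. The other libraries came from MTFi and MTF, whose abbreviations the labels do not spell out, and from strains labelled arf1D, hrc1D and NIP1_depl, each with EcFMT and with R42L. Each group held 2 libraries. Nothing in the labels states that replicates were separate cultures, and the spread behind each p-value is that between libraries and may be technical.

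Rli1 is the ATPase that splits the ribosome after termination, so that its subunits can be used again. Cells short of it are known to hold ribosomes at stop codons and in the sequence that follows them. EcFMT formylates methionine carried by the initiator tRNA, a step which cytosolic protein synthesis in yeast does not normally use. The question addressed here was whether EcFMT changes the share of counts on open reading frames (ORFs) that have almost none in the other strains. That share was taken relative to the share on features that lie opposite abundantly translated genes.

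The deposited values were expected counts per annotated feature, and they totalled 92583 and 123204 in the EcFMT libraries and 58090 and 104382 in the R42L libraries. Most counts in each of the 20 libraries lay on ORF features that are not in the RefSeq gene table, and most of these bear names that place them on the strand opposite a known gene. In MTFi and MTF these features held 98.6% to 98.8% of the counts. RefSeq ORFs that overlap no RefSeq gene on the other strand held 0.44% to 0.48%. The sources used here do not state whether counting used the strand, and which strand the reads came from was not tested. A low count on an ORF is not taken as a lack of footprints from its gene. Counts on an ORF, silent ORFs below included, are likewise not taken as footprints of its gene. A feature is therefore named below with the gene it lies opposite in parentheses, and its value is not taken as the level of that gene. Expected counts can also be divided between overlapping or near-identical features. The genes named in the labels could not serve as a check on them. FMT1 and RLI1 were listed at 0 in all 4 RLI1_depl libraries and in the other 16 as well, while NIP1 summed to 2 counts over the 20 libraries, ARF1 to 2.5 and HCR1 to 3.84. A count of 0 in a library leaves room for up to 3 counts.

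A pair of feature classes was set against each other, with class limits as counts-per-million values over the library total (CPM). Silent ORFs were the 3699 RefSeq ORFs that overlap no RefSeq gene on the other strand and had under 5 CPM in each of the other 4 strains. MTFi and MTF were pooled as 1 strain. Features outside RefSeq did not count as an overlap here or below, so a silent ORF can have an opposite feature with many counts. An example is ARO9, a silent ORF with 2.0 counts in the other 16 libraries together. Its opposite feature YHR137C-A had 9101.6 counts there, and a mean of 2437 CPM over the other strains. Abundant-opposite features were the 68 ORF features outside RefSeq with a mean of 1000 CPM or more over those strains.

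Silent ORFs took a smaller share of the counts with EcFMT than with R42L, and abundant-opposite features took a larger one. In the EcFMT libraries silent ORFs held 1.70% (95% Wilson interval 1.62 to 1.79) and 1.84% (1.77 to 1.92) of the counts. In the R42L libraries they held 2.56% (2.43 to 2.69) and 2.56% (2.46 to 2.65). Both EcFMT libraries lay below both R42L libraries, and none of their counting intervals met. Abundant-opposite features held 63.7% of the counts in each EcFMT library, against 58.5% and 58.8% in the R42L libraries. These groups also did not overlap. The intervals cover counting error within a library only. They take each count as independent, which PCR copies are not, so they can be too narrow.

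Expressed as a ratio, there were 26.7 and 28.9 counts on silent ORFs per 1000 counts on abundant-opposite features with EcFMT, and 43.7 and 43.5 with R42L. The mean log2 ratio was -5.17 ± 0.079 (SD, n = 2) with EcFMT and -4.52 ± 0.005 (SD, n = 2) with R42L. EcFMT minus R42L was -0.65 on the log2 scale, or 0.637 times the R42L ratio, which is 8.28 times the larger of the 2 SDs. An exact two-sided permutation test over the 4 libraries gave p = 0.33, the smallest value that 6 arrangements allow, so this test cannot reach 0.05 here. Mean fragment length was 28.80 and 28.79 nt in the EcFMT libraries and 28.88 and 28.75 nt in the R42L libraries.

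Fewer separate silent ORFs were seen with EcFMT once depth was made equal. As deposited, 670 and 836 silent ORFs had any count with EcFMT and 695 and 989 with R42L. At a common depth of 50000 counts, the expected number was 449.1 and 474.6 with EcFMT and 619.5 and 649.0 with R42L. The groups did not overlap at that depth, whereas the numbers without thinning did. Depth was made equal for whole libraries and not for the counts on silent ORFs, so a smaller share by itself lowers this number. The number of ORFs is therefore not a result separate from the share. Whether the counts were spread over fewer ORFs at equal silent counts was not tested.

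The other 3 strains showed no such fall. Log2 ratios in arf1D were -10.40 and -10.33 with EcFMT and -10.47 and -10.52 with R42L, a difference of 0.13. In hrc1D they were -8.58 and -8.84 against -9.06 and -8.85, a difference of 0.25. In NIP1_depl they were -7.93 and -7.98 against -8.11 and -8.00, a difference of 0.10. In each of these strains both EcFMT libraries lay above both R42L libraries, and the difference between means was 2.81, 1.35 and 1.24 times the larger SD in the same order (exact permutation p = 0.33 in each). Whether the difference in RLI1_depl departs from those in the other strains was not tested for this single ratio. The ratio itself was far higher in RLI1_depl than elsewhere, as the choice of ORFs silent in the other strains favours.

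**Figure D1:**
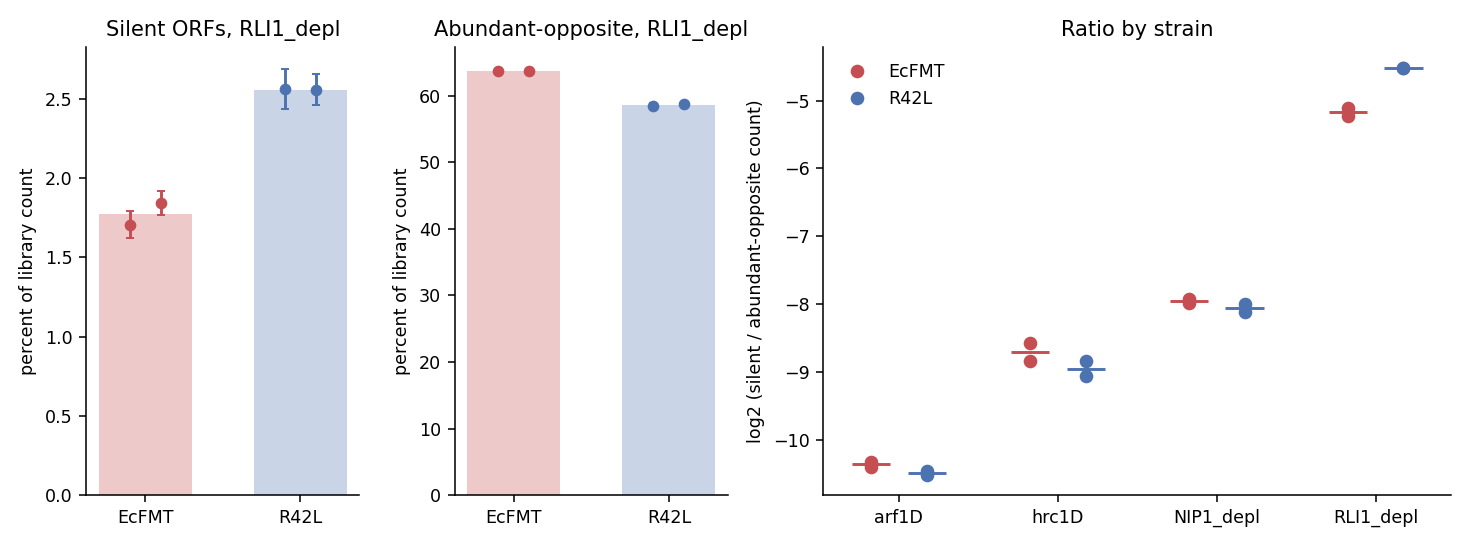
Percent of library count on silent ORFs (left) and on abundant-opposite features (middle) in the 4 RLI1_depl libraries, as points with 95% Wilson intervals over bars that mark group means, and the log2 ratio of both counts in 4 strains (right; points are libraries and lines are group means). EcFMT lies below R42L in the left panel, at 1.70% and 1.84% against 2.56%, and above it in the middle panel. The RLI1_depl ratio is lower with EcFMT by 0.65, while in the other strains EcFMT lies slightly above R42L.

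The lower share with EcFMT was not confined to the most silent ORFs. RefSeq ORFs without an opposite gene were split by their highest CPM in the other 4 strains, with limits chosen after the values were seen, and each group's count was related to that on abundant-opposite features. The 1610 ORFs with no count at all in the other strains held 313.4 and 469.4 counts with EcFMT and 311.4 and 471.4 with R42L, from larger EcFMT libraries. Their log2 difference, EcFMT minus R42L, was -0.57 (SD 0.12 with EcFMT and 0.18 with R42L). It was -0.67 for the 1260 ORFs under 2 CPM, -0.66 for the 829 at 2 to 5 CPM and -0.70 for the 765 at 5 to 10 CPM. The same held above the limit for silence, with -0.58 for the 964 ORFs at 10 to 50 CPM and -0.58 for the 308 at 50 to 200 CPM. The 69 ORFs at 200 CPM or more differed by -0.31, with SDs of 0.01 and 0.02. In all 7 groups both EcFMT libraries lay below both R42L libraries.

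RefSeq ORFs without an opposite gene that were not silent held 10.8% and 11.2% of the counts with EcFMT and 14.7% and 14.3% with R42L. Their share thus fell by 3.54 points between the means, more in absolute terms than the 0.79 points of the silent ORFs. In relative terms the EcFMT share was 0.756 times the R42L share for these ORFs and 0.693 times for the silent ones. Shares of a library sum to a fixed total, so a larger share for one class requires a smaller one elsewhere.

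Among ORF features outside RefSeq the difference varied between groups of mean CPM, with no steady order. Those of 10 to 100 mean CPM in the other strains, 123 in number, had a log2 difference to the abundant-opposite features of -0.47. It was -0.14 for the 243 features of 100 to 1000 CPM and -0.18 for the 249 under 10 CPM. As shares of the library these groups overlapped. The 243 features held 18.8% and 18.17% with EcFMT and 18.69% and 18.87% with R42L, and the 249 held 0.2297% and 0.2087% against 0.2165% and 0.2409%. Within the abundant-opposite class, the 49 features of 1000 to 10000 CPM differed by -0.06 and the 19 features of 10000 CPM or more by 0.02. Both groups are part of the class they were related to, so values near 0 are partly fixed in advance. As shares of the library, the 19 features held 49.13% and 49.15% with EcFMT and 44.3% and 44.92% with R42L. Features outside RefSeq that were not abundant held 20.6% and 19.9% of the counts with EcFMT and 20.9% and 21.0% with R42L, which differed by 0.73 points between the means. RefSeq ORFs that do overlap an opposite gene held 2.65% and 2.86% against 2.79% and 2.67%, and there the groups overlapped.

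**Figure D2:**
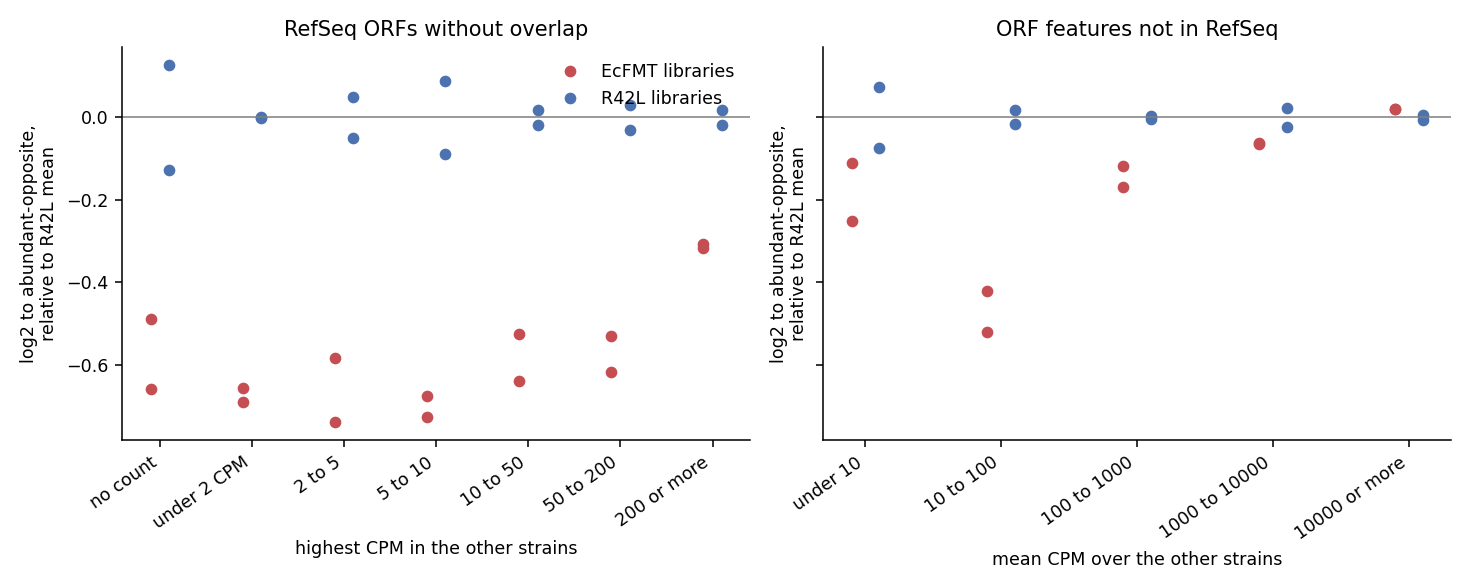
Log2 ratio of each group's count to the abundant-opposite count in the 4 RLI1_depl libraries, relative to the mean of both R42L libraries, for RefSeq ORFs without an opposite gene (left, by highest CPM in the other strains) and for ORF features outside RefSeq (right, by mean CPM). Points are libraries. EcFMT means lie 0.57 to 0.70 below the R42L mean up to 10 CPM on the left, and within 0.06 of it from 1000 CPM on the right. Groups from 1000 CPM on the right form the abundant-opposite class itself, so values near 0 there are partly fixed in advance.

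Counts on silent ORFs were spread thinly. Of the 3699, 1724 had a count in at least 1 RLI1_depl library, 1975 had none, and all together held 7996 counts. The 10 ORFs of highest count held 15.1% of these and the 100 highest 41.8%, and 161 ORFs held 50%. Those with 1 to 3 counts summed over the 4 libraries, 1190 ORFs, held 0.372% and 0.390% of the library with EcFMT and 0.725% and 0.661% with R42L. The 28 ORFs with at least 30 counts held 0.488% and 0.526% against 0.589% and 0.602%. These groups were formed from the summed counts of the same libraries and are a description only.

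All 12 silent ORFs of highest count ended close to a gene on the other strand that points towards them, a convergent neighbour, at gaps of 42 to 145 nt. Among all silent ORFs 54.7% had a convergent neighbour, at a median gap of 236 nt. The highest was EST2, the catalytic subunit of telomerase (chrXII:766542-769196, R64), which ends 121 nt from the end of BUD6. It had 38.3 and 63.8 counts with EcFMT and 25 and 72 with R42L, and 4.03 counts in the other 16 libraries together. Next came YBR221W-A (chrII:666538-666642), which ends 77 nt from PCS60 and had 40.4 and 37.2 counts with EcFMT against 43.3 and 77.2 with R42L. CTF8, part of an alternative clamp loader for chromosome cohesion (chrVIII:486230-486631), lies 50 nt from ERG9 and had 27.8 and 49.9 against 23.3 and 32.3 counts.

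NOT5, a subunit of the Ccr4-Not complex (chrXVI:690107-691789), had 35.7 and 32.1 counts with EcFMT and 24.0 and 34.1 with R42L, at 143 nt from LTP1. PTH2, a peptidyl-tRNA hydrolase (chrII:112801-113427), had 33.9 and 31 against 25 and 34.6 counts, at 92 nt from SHP1. ARO9, an aromatic aminotransferase (chrVIII:375709-377250), had 25.9 and 25.8 against 20.4 and 34.3 counts, at 104 nt from YHR138C. As shares of the library, the EcFMT and R42L values of EST2, CTF8, NOT5 and PTH2 overlapped, while both EcFMT values of YBR221W-A and ARO9 lay below both R42L values. SAM37, of the mitochondrial outer membrane, went the other way, with 27.3 and 21 counts against 6.9 and 11.5, and its change of 1.31 was the largest of the 12 but was not called (adjusted p = 0.326 by edgeR). The EcFMT shares of INP51, a phosphoinositide phosphatase, also lay below both R42L shares, and those of PIH1, EFG1, NOP8 and BNA7 overlapped. INP51, PIH1, an Hsp90 cofactor, EFG1 and NOP8, which act in ribosome synthesis, and BNA7, of NAD synthesis, had 63.0 to 102.8 counts each over the 4 libraries. Many of these counts are not whole numbers, because RSEM divides reads that can belong to more than one feature.

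Distance to a convergent neighbour went with both the number of counts and the size of the EcFMT difference. The 220 silent ORFs with a convergent neighbour nearer than 100 nt made up 5.95% of the silent ORFs and held 25.9% of their counts in RLI1_depl, against 7.73% of them in the other 16 libraries. Their share was 0.477% and 0.522% with EcFMT and 0.605% and 0.607% with R42L, a log2 difference of -0.40 to the abundant-opposite features. From 100 to under 200 nt, 608 ORFs held 26.8% of the silent counts and differed by -0.53 (SD 0.02 and 0.05). From 200 to under 400 nt, 775 ORFs differed by -0.91 (SD 0.13 and 0.12), and at 400 nt or more, 420 ORFs differed by -1.15 (SD 0.16 and 0.10). In this last group the shares were 0.085% and 0.100% with EcFMT and 0.178% and 0.198% with R42L.

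Silent ORFs whose next gene lies on the same strand, 1658 in number, differed by -0.77 (SD 0.09 and 0.06), with 0.445% and 0.485% of the counts with EcFMT and 0.748% and 0.708% with R42L. The difference was -0.80, -0.89 and -0.68 at gaps from 100 to under 200, from 200 to under 400 and of 400 nt or more, with no steady order. Put together, the 828 silent ORFs within 200 nt of a convergent neighbour differed by -0.47 and the other 2871 by -0.86. In the other strains the same 2871 ORFs differed by 0.17 in arf1D, 0.13 in hrc1D and 0.05 in NIP1_depl. The 828 ORFs differed there by 0.0, 0.72 and 0.27 in the same order, so these groups also parted in other strains. By length, the difference was -0.61, -0.47, -0.65 and -0.88 from the shortest to the longest of 4 equal groups of silent ORFs, whose median length was 1179 nt. These splits were chosen after the values were seen and were not tested against each other.

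**Figure D3:**
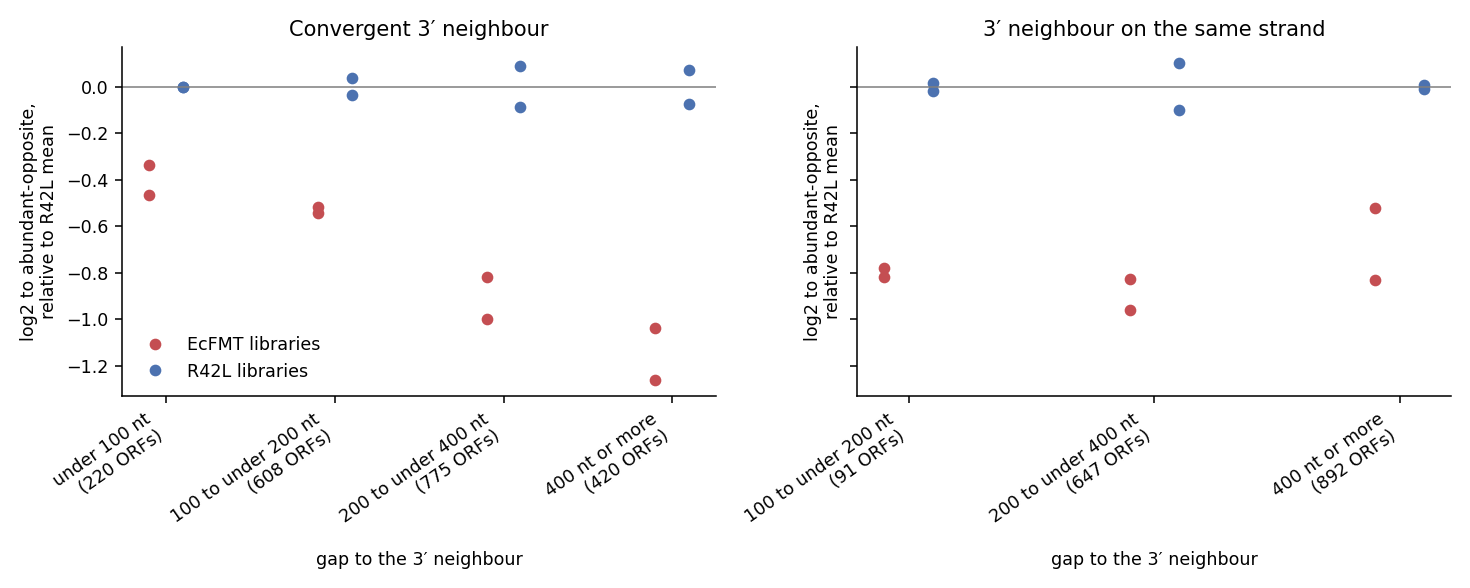
Log2 ratio of the counts on silent ORFs to the abundant-opposite count in the 4 RLI1_depl libraries, relative to the mean of both R42L libraries, by the gap in nt to the 3′ neighbour, for a convergent neighbour (left) and one on the same strand (right; the 28 ORFs under 100 nt are not drawn). Points are libraries. On the left the EcFMT mean moves from 0.40 to 1.15 below the R42L mean as the gap widens.

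Within the abundant-opposite class, features opposite ribosomal protein genes and the remaining non-glycolytic features both took larger shares with EcFMT. The 14 features opposite ribosomal protein genes held 34.8% and 34.5% of the counts with EcFMT and 30.3% and 30.9% with R42L. The 3 features opposite glycolytic genes held 9.14% and 9.41% against 9.44% and 9.36%, where the groups overlapped. The other 51, YEL034C-A (HYP2) among them, held 19.8% and 19.9% against 18.8% and 18.5%, and the groups did not overlap. Taken one by one as shares of the library total, 29 of the 68 were higher in both EcFMT than in both R42L libraries and 11 were lower. Among all 1399 features with enough counts to test, 13.2% were higher and 32.2% lower in this sense. Of the 79 silent ORFs with enough counts, 7 (8.86%) were higher and 31 (39.2%) lower. Being under 5 CPM in each other strain, these 79 passed the filter through their counts in the RLI1_depl libraries compared here. They are the better covered silent ORFs, and their directions are a description only.

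**Figure D4:**
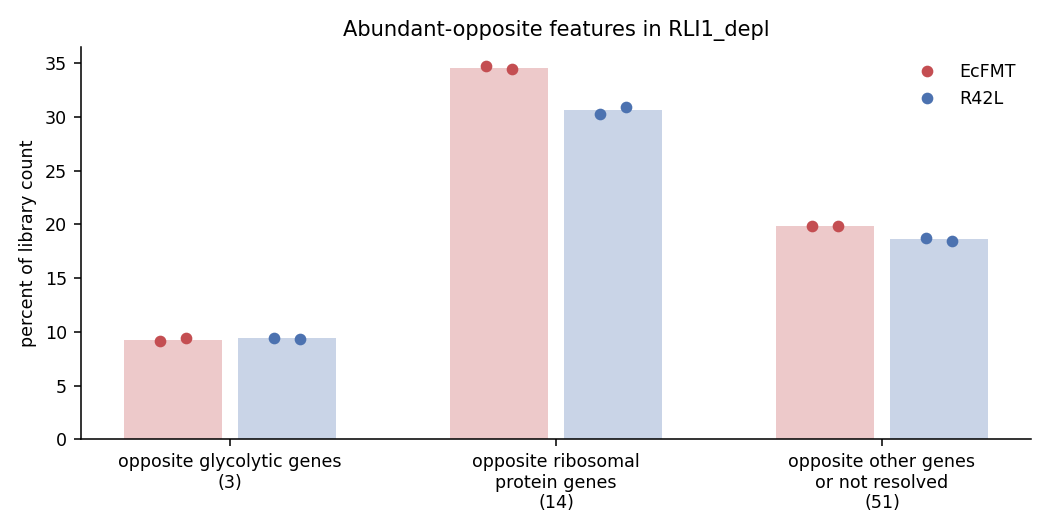
Percent of library count on the 68 abundant-opposite features in the 4 RLI1_depl libraries, for 3 features opposite glycolytic genes, 14 opposite ribosomal protein genes and 51 others. Points are libraries and bars are means. Features opposite ribosomal protein genes rise from 30.3% and 30.9% with R42L to 34.8% and 34.5% with EcFMT, while those opposite glycolytic genes lie between 9.14% and 9.44% in all 4.

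Single features were tested with edgeR's quasi-likelihood test on all 20 libraries, with TMM scaling and Benjamini-Hochberg adjustment. With EcFMT, 39 features were higher and 9 lower at an adjusted p under 0.05, that is 3.43% of the 1399 tested. The split between directions depended on the scaling. With RLE size factors 23 were higher and 14 lower, and with library totals alone 11 were higher and 26 lower. The median log2 change over all tested features was 0.05, -0.09 and -0.24 in these settings. Values below are on the TMM scale, in scaled CPM. Leaving out any 1 of the 4 libraries lowered the number of calls to between 11 and 17.

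Of the 68 abundant-opposite features 22 were called higher and none lower, with a median log2 change of 0.37. Of all tested features 2.79% were called higher and 0.643% lower. These values are on the TMM scale, whose factors were larger with R42L than with EcFMT. As shares of the library total, 29 of the 68 were higher in both EcFMT than in both R42L libraries and 11 were lower. None of the 79 tested silent ORFs was called, and their median was -0.09. YEL034C-A (HYP2), opposite the gene of the translation factor eIF5A at chrV:85676-86149, had 13920 and 13150 scaled CPM with EcFMT and 8563 and 9026 with R42L. It rose by 0.62 on the log2 scale (SE 0.11, adjusted p = 1.38e-05 by edgeR), and it stayed called without each library in turn. YLR339C (RPP0), opposite the gene of the ribosomal stalk protein P0 at chrXII:805887-806825, had 19920 and 18460 against 12460 and 13570 scaled CPM. Its change was 0.56 (SE 0.11, adjusted p = 0.000182 by edgeR), and it was not called without R42L replicate 1, at 0.52. YGL102C (RPL28) changed by 0.55, YLL044W (RPL8B) by 0.54 and YGL123C-A (RPS2) by 0.60. Without R42L replicate 1 these gave 0.53, 0.54 and 0.59 and were not called, and YGL123C-A was also not called without EcFMT replicate 1, at 0.53.

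For 16 features of ribosomal protein genes, 15 of them opposite features, 10 were called higher and none lower. Their median was 0.44 beside 0.05 for all features tested. Among the 437 tested features outside RefSeq, 35 were called higher and 7 lower, with a median of 0.25. The abundant-opposite class had 22 of 68 called higher and a median of 0.37. Besides those named, YPL250W-A (RPL36B) changed by 0.48, YLR076C (RPL10) by 0.44 and YPR044C (RPL43A) by 0.38, and these 3 calls were lost without any 1 of the 4 RLI1_depl libraries, at 0.51 to 0.55, 0.44 to 0.53 and 0.35 to 0.51. The abundant-opposite features of glycolytic genes did not pass. YAL037C-B (CDC19), opposite the pyruvate kinase gene at chrI:71786-73288, had 24310 and 24890 scaled CPM with EcFMT and 19820 and 19910 with R42L, a change of 0.31 (adjusted p = 0.0684 by edgeR). YKL153W (GPM1) had a change of 0.26 and YCR013C (PGK1) of 0.11. With library totals these 3 values were 0.02, -0.03 and -0.18. On that same scale YLR339C gave 0.27, YGL102C 0.26, YLL044W 0.25 and YGL123C-A 0.31, all called, while YPL250W-A at 0.19, YLR076C at 0.15 and YPR044C at 0.09 were not. Features opposite the Hsp70 genes, YAL004W (SSA1) and YDL228C (SSB1), gave 0.29 and 0.28 and did not pass, and none of 5 tested features of chaperone genes was called.

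Among features of initiation factor genes 2 of 3 tested were called, both higher. Both lie outside RefSeq, where 35 of 437 tested features were called higher. YPL238C (SUI3), opposite the gene of the beta subunit of eIF2 at chrXVI:100496-101353, had 1526 and 1651 scaled CPM with EcFMT and 852.5 and 1046 with R42L. It changed by 0.73 (SE 0.15, adjusted p = 0.000263 by edgeR), and without EcFMT replicate 2 or R42L replicate 1 it gave 0.68 or 0.63 and was not called. YOR277C (CAF20), opposite the gene of a protein that binds eIF4E, changed by 0.65. GCD6, a RefSeq ORF for an eIF2B subunit, gave -1.11 (adjusted p = 0.79 by edgeR).

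Of 5 tested features of ribosome synthesis genes 3 were called, all higher, with a median of 0.65 over the 5. All 3 lie outside RefSeq, where 35 of 437 tested features were called higher. None of the 3 was called with library totals, without the filter on low counts, among features outside RefSeq alone or with DESeq2, and with library totals they gave 0.61, 0.35 and 0.41. YLR198C (NOP56), opposite the gene of a box C/D snoRNP protein at chrXII:546097-547611, had 337.7 and 356.5 against 160.9 and 202.6 scaled CPM, a change of 0.90 (SE 0.23, adjusted p = 0.00415 by edgeR). YGR160W (NSR1), opposite a nucleolin-like gene, changed by 0.65, and YMR290W-A (HAS1), opposite an RNA helicase gene, by 0.70. YLR198C was not called without EcFMT replicate 2 (0.87) or R42L replicate 1 (0.80), and YGR160W not without EcFMT replicate 1 (0.49) or R42L replicate 1 (0.55). The call of YMR290W-A was lost without any 1 library, at 0.58 to 0.91. YPR142C (RRP15), opposite a gene of large-subunit assembly, changed by 0.72, and YNL114C (RPC19), opposite the gene of a subunit shared by RNA polymerases I and III, by 0.73. YPR142C was not called without EcFMT replicate 1 (0.83), EcFMT replicate 2 (0.69) or R42L replicate 1 (0.55), and YNL114C not without EcFMT replicate 1 (0.65) or R42L replicate 1 (0.70).

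The other features with the largest rises were more varied. YAL042C-A (ERV46), opposite a gene of transport between the endoplasmic reticulum and Golgi, had 671.2 and 673.4 against 300.3 and 402.3 scaled CPM, a change of 0.90 (SE 0.19, adjusted p = 0.000281 by edgeR). Without R42L replicate 1 it gave 0.76 and was not called. YBR056C-B, whose name lies between MRX18 and MNC1, had 4886 and 5262 against 3003 and 3022 scaled CPM, a change of 0.75 (SE 0.15, adjusted p = 0.000144 by edgeR), and it stayed called without each library in turn. Over the pooled libraries of a strain it had 11830 CPM of the total in RLI1_depl and 72.5 to 624.9 in the other 4 strains. YGL069C (MNP1), opposite a mitochondrial ribosomal protein gene, changed by 0.73, YBR174C (SWD3), opposite a gene of the COMPASS complex, by 0.81, and the RefSeq ORF FYV5 by 0.76. YGL069C was not called without EcFMT replicate 2 (0.72) or R42L replicate 2 (0.64). YMR119W-A, whose name lies between SHH3 and ADE17, had 53.4 and 49.0 counts with EcFMT and 6.9 and 18.0 with R42L, a change of 1.96 that was not called by DESeq2. The calls of YBR174C, FYV5 and YMR119W-A were each lost without any 1 library, at 0.76 to 0.95, 0.79 to 0.80 and 1.73 to 2.35.

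Among the called features, those with the largest fitted changes were 2 of Ty retrotransposons, whose near-identical copies make their counts uncertain. YOR343W-A had 21.1 and 16.8 counts with EcFMT and 1.8 and 0.0 with R42L. YBL100W-A had 7.5 and 7.9 counts with EcFMT and none in either R42L library. Neither was called by DESeq2. The call of YBL100W-A was also lost without any 1 library, and that of YOR343W-A without R42L replicate 2.

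All 9 features called lower had both EcFMT libraries below both R42L libraries. YER067C-A (RGI1), opposite a gene of energy metabolism under respiratory growth at chrV:292066-292551, had 4.0 and 12.0 counts with EcFMT and 29.0 and 40.0 with R42L. Scaled, these were 16.7 and 36.6 against 155.5 and 119.2 CPM, and the feature fell by 2.23 on the log2 scale (SE 0.39, adjusted p = 5.35e-06 by edgeR). It was called in every alternative fit and without each RLI1_depl library in turn. YER066C-A, whose name lies between RRT13 and RGI1, had 112.6 and 91.4 against 252.0 and 244.4 scaled CPM, a change of -1.29. It was not called without EcFMT replicate 2 (-1.12) or R42L replicate 2 (-1.23).

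YNL276C (MET2), opposite the homoserine acetyltransferase gene at chrXIV:117349-118809, had 10 and 25 counts with EcFMT and 33 and 72 with R42L, and fell by 1.69 (SE 0.33, adjusted p = 0.000105 by edgeR). YIR017W-A (MET28), opposite the gene of a regulator of sulfur metabolism at chrIX:383556-384119, had 229.3 and 234.6 against 450.4 and 473.8 scaled CPM, and fell by 1.0 (adjusted p = 0.000461 by edgeR). The call of YNL276C was lost without EcFMT replicate 1 (-1.31) or R42L replicate 2 (-1.44), and that of YIR017W-A without EcFMT replicate 1 (-0.91), EcFMT replicate 2 (-1.0) or R42L replicate 2 (-0.87). In the list of amino acid biosynthesis genes 12 features were tested. Called lower were 2, YNL276C and YIR017W-A, and called higher 2, YNL103W-A (LEU4) at 0.62 and YHR137C-A (ARO9) at 0.54. Among all 1399 features tested, 2.79% were called higher and 0.643% lower. The 8 of the list that were not called included the ORFs of the genes themselves for MET10 at 1.68, MET2 at 0.70, MET13 at 0.39 and MET28 at -0.92. Both calls of higher features were lost with every alternative but the replicate block, and with library totals they gave 0.32 and 0.25. YNL103W-A was not called without EcFMT replicate 1 (0.36), R42L replicate 1 (0.50) or R42L replicate 2 (0.90), and YHR137C-A not without any 1 library, at 0.50 to 0.65.

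APM3, a subunit of the AP-3 adaptor complex, and SSH1, part of a second translocon of the endoplasmic reticulum, were the RefSeq ORFs without an opposite gene that were called. APM3 had 55.0 and 89.0 counts with EcFMT and 125.0 and 261.0 with R42L, and fell by 1.53 (SE 0.25, adjusted p = 2.07e-06 by edgeR), though DESeq2 did not call it. SSH1 had 26 and 42 against 59 and 91 counts and fell by 1.29, a call lost without any 1 library, at -1.11 to -1.41. Both ORFs had far more CPM of the total in RLI1_depl, at 1401 and 576.3, than in any other strain, where the highest were 94.1 and 28.4. YNL057W (YNL058C) fell by 0.89, YOR121C (GCY1), opposite a glycerol dehydrogenase gene, by 0.78, and YLR120W-A, whose name lies between YPS1 and YPS3, by 1.96. YNL057W was not called without EcFMT replicate 1 (-0.73) or R42L replicate 2 (-0.82), and the calls of YOR121C and YLR120W-A were lost without any 1 library, at -0.70 to -0.76 and -1.38 to -2.59.

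**Figure D5:**
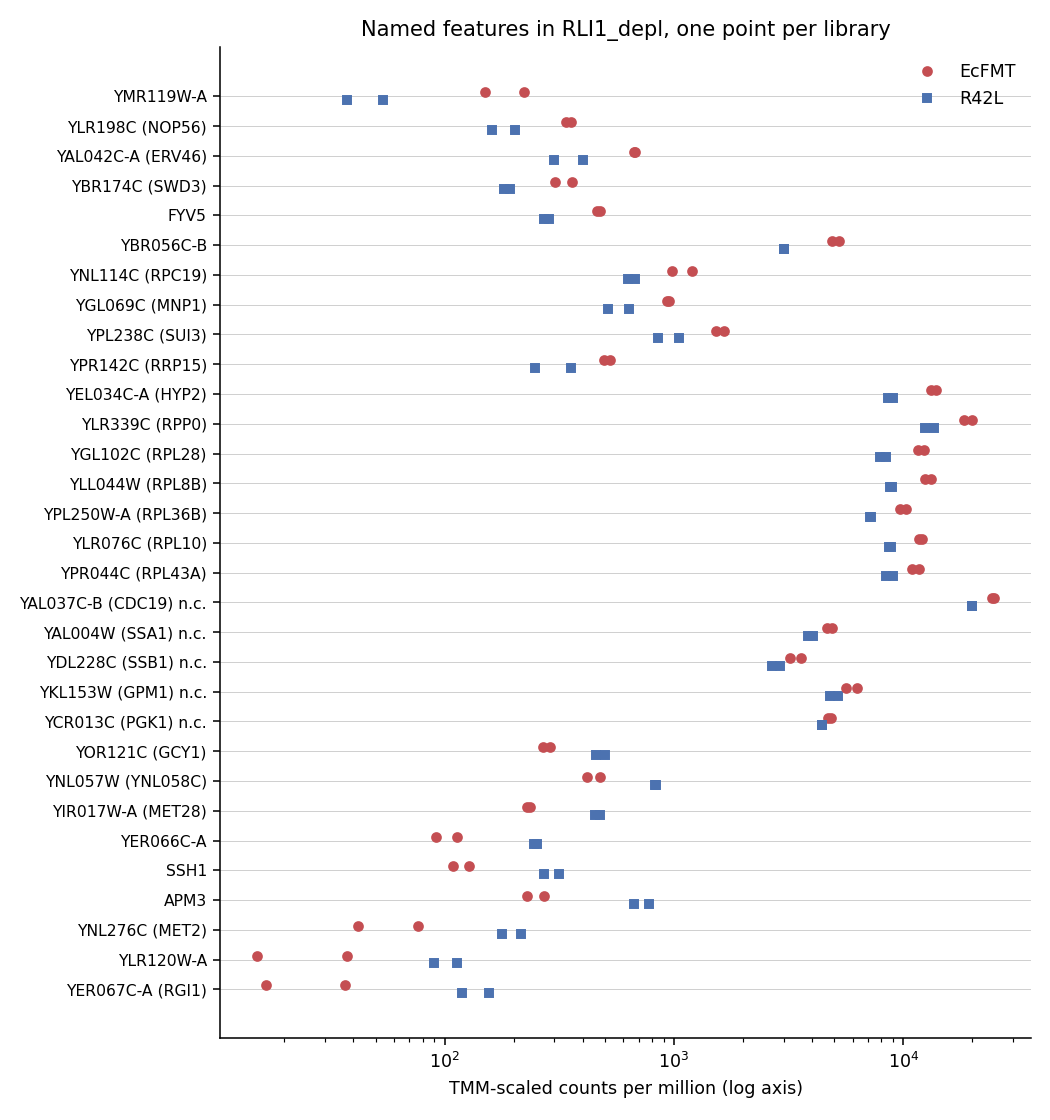
TMM-scaled CPM (log axis) of the features with the largest called changes and of the 12 most abundant opposite features in the RLI1_depl libraries, with the gene opposite in parentheses. Each point is 1 library, and n.c. marks features that were not called. EcFMT points lie right of R42L points from YEL034C-A (HYP2), at 13920 and 13150 against 8563 and 9026, upwards, and left of them for the 9 lowest features. The 2 Ty features, each with an R42L library at 0, are not drawn.

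Other gene lists held few tested features. Of 11 genes of termination and recycling, 1 feature had enough counts, YDR118W-A (TMA64), opposite a recycling factor gene, at -0.57 (adjusted p = 0.75 by edgeR). For ribosome-associated quality control 4 features were tested and none was called. CUE2, a RefSeq ORF for an endonuclease of No-Go decay, gave -1.16 (adjusted p = 0.16 by edgeR). None of 4 features of genes for N-terminal processing, 29 of meiosis and sporulation genes or 8 of mating-type genes was called. Among these, ZIP2, of meiotic synapsis, gave -1.29, NDT80, a meiotic regulator, 0.78, RIM4 -0.84 and YNL203C (SPS19) -0.74, and YKL177W (STE3), opposite the a-factor receptor gene, 0.60. The counts of HO rested on EcFMT replicate 2, at 7.0, with 0 in the other 3 libraries. Of 11 features of respiration and stress genes, YDL011C (GRX6) at 0.67 and YDL023C (GPD1) at 0.43 were called higher and YER067C-A lower. All 3 lie outside RefSeq, where 35 of 437 tested features were called higher and 7 lower. YDL011C was not called without EcFMT replicate 1 (0.52), R42L replicate 1 (0.79) or R42L replicate 2 (0.62), and YDL023C not without any 1 library, at 0.45 to 0.52.

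A direct test asked which of these differences depart from the mean difference in arf1D, hrc1D and NIP1_depl, in the same edgeR fit. It called 18 features higher and 6 lower, 1.72% of the 1399 (1.29% higher and 0.429% lower). Of the abundant-opposite features 13 were among those higher, 7 of them opposite ribosomal protein genes. No silent ORF was called, but silent ORFs have almost no counts in the strains subtracted, by definition. Their differences there are poorly estimated, so this test cannot decide the question for them. YPL238C (SUI3) had a departure of 0.83 (SE 0.17, adjusted p = 0.00133), its changes being -0.11, -0.10 and -0.09 in arf1D, hrc1D and NIP1_depl. YLR339C (RPP0) departed by 0.59 and YEL034C-A (HYP2) by 0.57. YER067C-A (RGI1) departed by -2.18 (SE 0.43, adjusted p = 0.000561), with changes of 0.20, 0.26 and -0.62 in the other strains. YER066C-A departed by -1.44 and APM3 by -2.13. Without 1 of the 4 RLI1_depl libraries, this test called 1 to 8 features.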

How the data were processed

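Ribosome footprints were taken from the 4 RLI1_depl libraries, with the other 16 libraries as background. Per the submitters' processing notes, reads were handled with STAR 2.7.2b and RSEM 1.2.31 on genome build R64. The deposited unit is the RSEM expected count per feature, not scaled for depth, with 7127 features a library and library totals of 58090 to 505676. Expected counts were rounded for tests and kept unrounded for shares.

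RefSeq coordinates and names (assembly R64) were matched by locus tag. The strand came from the systematic name. For the 683 ORF features outside RefSeq, the opposite gene was taken from name order where 1 candidate existed (223 features) or from general knowledge of yeast genes (65), 341 had several candidates, and 54 had none.

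Tests used edgeR 4.0.16 in R 4.3.3, on 1 mean per group over 20 libraries with 10 residual degrees of freedom, filterByExpr at a minimum count of 10, TMM, and a call at an adjusted p under 0.05. The SE of a log2 change was taken as its size over the root of the F statistic. On simulated data for this comparison over 1266 features, 59% of 2-fold and 90% of 4-fold changes were recovered, with 3.25% of calls false. The simulation gave all features the same spread. It changed equal numbers up and down, among features with a mean of 10 or more counts in RLI1_depl. These rates need not hold for the calls made here. In the RLI1_depl libraries TMM factors were 2.66 and 2.73 with EcFMT and 3.33 and 3.34 with R42L, and they were 0.364 at the lowest elsewhere. Compared with library totals, this raises scaled EcFMT values relative to R42L values. Replicates of RLI1_depl differed beyond sampling noise (chi-square per degree of freedom 1.67 with EcFMT and 1.48 with R42L), so each counted as 1 sample. DESeq2 1.42.0 was an alternative. A common depth of 50000 counts was reached by the hypergeometric expectation, without drawing.

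Alternatives were other scalings, no filter, a replicate block, the RLI1_depl libraries or features outside RefSeq alone, other class limits, and leaving out each library. Features were named by a rule: up to 12 per direction of largest change among called, well-covered and non-overlapping features, the 12 most abundant opposite features, the 12 silent ORFs of highest count, 5 genes in the labels, up to 4 per gene list of 5 or more tested members, and 3 per direction for the departure from other strains. Features outside it (CUE2, GCD6, YDR118W-A, YOR277C) were named after their values were seen. Ribosomal protein genes were matched by symbol, from RPL, RPS or RPP with a number. Members, classes and lists were chosen with earlier results of these data known.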

Additional observations from a re-analysis of the deposited data

Results flagged for a closer look

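The EcFMT difference of 6 features in RLI1_depl departed from the mean difference in arf1D, hrc1D and NIP1_depl in the edgeR test of that departure. YPL238C (SUI3), YLR339C (RPP0) and YEL034C-A (HYP2) departed upwards, by 0.83, 0.59 and 0.57 on the log2 scale. YER067C-A (RGI1), YER066C-A and APM3 departed downwards, by -2.18, -1.44 and -2.13. Each was called with all libraries, at adjusted p-values by edgeR of 0.00133, 0.00191, 0.00217, 0.000561, 0.00172 and 0.00217 in the same order. Each call was lost without at least 1 library. For YPL238C the value was 0.77 without EcFMT replicate 2 and 0.71 without R42L replicate 1. YLR339C gave 0.60, 0.65 and 0.53 and YEL034C-A 0.60, 0.62 and 0.54 without EcFMT replicate 1, EcFMT replicate 2 and R42L replicate 1. YER067C-A gave -1.74 without EcFMT replicate 1. YER066C-A gave -1.52, -1.28 and -1.39 without EcFMT replicate 1, EcFMT replicate 2 and R42L replicate 2. APM3 gave -1.96 and -1.94 without EcFMT replicate 1 and R42L replicate 2 of RLI1_depl, and -1.50 without EcFMT replicate 2 of arf1D, a strain in which it had 5.87 CPM of the total. DESeq2 did not call APM3 either, at -2.27.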

How the results depend on the processing

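The EcFMT minus R42L difference in the log2 ratio of silent-ORF to abundant-opposite counts stayed between -0.54 and -0.86 in every alternative tried, and was -0.60 to -0.71 without single libraries. The -0.86, from leaving out silent ORFs within 200 nt of a convergent neighbour, was added after seeing the data. The 828 ORFs left out there gave -0.47 by themselves, which lies outside that range and was not counted among the alternatives. The replicate numbers did not pair the libraries: deviations of same-numbered libraries correlated at 0.07 over 582 features. With a replicate block, 53 features were called, that difference stayed at -0.65, and no call of a named feature changed. The 48 calls became 9 without a filter on low counts, 27 among features outside RefSeq, 18 with DESeq2, and 11 to 17 without single RLI1_depl libraries. Calls of a departure from the other strains went from 24 to 5 without the filter, and ranged from 1 to 24 without single libraries, from 12 without 1 library of another strain. The drop without the filter came with 5334 features tested in place of 1399. The cause of the other changes was not tested.

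Only named features called in neither setting changed sign. With library totals, YAL004W gave -0.00, YDL228C -0.01, YGL074C -0.01, YKL083W -0.01, YKL153W -0.03, YCR013C -0.18, NOT5 -0.18, PIH1 -0.11, BNA7 -0.10 and NOP8 -0.03. With RLE, YCR013C gave -0.04 and NOT5 -0.03, with DESeq2 YCR013C -0.04, NOT5 -0.04 and BNA7 -0.00, and with the 4 RLI1_depl libraries alone -0.03 each for YCR013C and NOT5. Among features outside RefSeq, YCR013C gave -0.17, YKL153W -0.02 and YKL083W -0.01. EST2 gave 0.02 with the block. Without single libraries EST2 ranged from -0.25 to 0.49, NOT5 from -0.14 to 0.41, PTH2 from -0.24 to 0.28, ARO9 from -0.32 to 0.07, INP51 from -0.92 to 0.11, BNA7 from -0.26 to 0.56, NOP8 from -1.54 to 1.02 and HO from 0.00 to 5.27. Of the 35 named features that were called, 4 stayed called without each library in turn (YBR056C-B, YER067C-A, APM3 and YEL034C-A), and 7 under all other alternatives. YER067C-A and YEL034C-A were the 2 that did both, YBR056C-B being lost without the filter and APM3 with DESeq2. Library totals also ended the calls of YBR174C, FYV5, YGL069C, YNL114C, YPR142C, YDL011C and YDL023C. Depth limits single silent ORFs, of which 79 had enough counts to test. Where a group was left with 1 library, its spread was assumed to equal that of the other groups.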
